A study of Mus musculus with 6 samples.

Results

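U6 is the smallest of the major spliceosomal small nuclear RNAs (snRNAs). This account describes every feature of these small RNA libraries that matches, at the same start and end, a gene of type snRNA and of about the length of U6 in GENCODE M21 (mouse genome build GRCm38). The length had to be within 7 nt of 105 nt. The rule found 215 features among the 1823 listed in at least 1 library. The libraries come from bone marrow. The series' design names lineage-negative cells, the marrow fraction depleted of mature blood cells, from wild-type (WT) mice and from mice with a maternal knockout (KO). The series concerns the imprinted Dlk1-Gtl2 locus, where the maternal chromosome expresses the non-coding RNAs. The sources used here do not name the deleted part, the strain or the ages. Each genotype had 3 libraries. The labels do not tie them to animals, cultures or days, so p-values reflect only how far these libraries spread, and that spread may be technical.

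U6 is transcribed by RNA polymerase III and is the most conserved spliceosomal RNA. It enters the spliceosome paired with U4 snRNA, is released, pairs with U2 snRNA and forms the catalytic core of the enzyme. Its ACAGAGA box pairs with the 5′ splice site of the intron. Its 5′ end carries a methylated phosphate in place of the trimethylguanosine cap of the other major snRNAs, and its 3′ end is a processed oligo(U) tail. Mammalian genomes carry a few U6 genes and a large number of pseudogene copies made by reverse transcription, so a read of U6 can match many places. The sources used here do not say how reads with several matches were treated, or with which counting tool and strand setting. The count of a single copy is therefore uncertain, while the sum over copies does not depend on how reads were divided among them. It would depend on whether such reads were left out or counted more than once.

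Sequences were compared with the commonest U6 sequence, using the GENCODE M21 transcripts on GRCm38. Rnu6, the 1 member with a U6 gene symbol, lies on the minus strand at chr17:13432033-13432139, is 107 nt long and carries that sequence, which 43 annotated genes share. Its ACAGAGA box spans bases 41 to 47. Gm24917 (chr11:22868901-22869004, plus strand) and Gm25930 (chr11:53390402-53390508, plus strand) had the most reads. Gm25412 (chrX:61938891-61938997, plus strand) and Gm22307 (chr1:4529017-4529123, plus strand), chosen after their values were seen, have 1 substitution each near the middle and had 1 and 3 reads. Gm24596 (chr7:126563874-126563980, minus strand), chosen likewise, departs from Rnu6 only at its 3′ end and had 36 reads. Gm23044 (chr10:12793875-12793974, minus strand), chosen likewise, departs from shortly after the box onward and had 5 reads.

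The length rule, checked on sequence, mostly picked U6. The box ACAGAGA, searched on both strands, was in 199 of the 215 features (92.6%), always on the gene's own strand. It was in 4 of 172 listed features of other RNA types in the same length range (2.33%) and in 6 of 133 snRNA features of other lengths (4.51%). Most members, 192, were exactly 107 nt long. The members are spread over 20 chromosomes: 127 lie in no longer gene, 86 lie within introns only, and Gm23410 and Gm26325 overlap an exon, of Med23 and Rnf225. Median reads were 16 for members outside longer genes and 19 for those in introns. At the edges of the size rule, the 5 members of 102 nt or less held 36 reads and the 4 of 110 nt or more held 24. Just outside it, 3 snRNA features of 92 to 97 nt held 5 reads, whereas 11 of 116 to 117 nt, the length of the U5 snRNA gene Rnu5g, held 66651.

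Libraries held 45398303 to 53299322 counts. As a check of the KO label, DQ267100, a snoRNA of the Dlk1-Gtl2 locus, gave 2, 0 and 1 KO reads against 59, 51 and 52 WT reads. Here and below, values are in the order of replicates 1 to 3 of each genotype. Among miRNA features of blood cells, Mir223 of myeloid cells had 8.61 to 21.1 CPM (counts per 1000000 counts of the library), Mir142 of all blood cells 1.07 to 2.33 CPM and Mir144 of erythroid cells 0.169 to 0.752 CPM. Mir126a, of stem and progenitor cells, had 274, 394 and 821 KO reads against 29, 245 and 173 WT reads, and Mir150, of lymphocytes, 194, 279 and 288 against 37, 145 and 116. Per the labels' protocols, PCR products the size of snoRNAs plus adaptors were taken from a gel, so the miRNA features were read in products of that size.

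Few reads were counted at U6-length features in these libraries. This need not reflect the abundance of U6 RNA, since the treatment of reads with several matches is unknown. The 215 features held 4104 reads among 297087573, or 13.8 CPM. The KO libraries gave 510, 309 and 537 of these reads, the WT libraries 1171, 742 and 835. Each KO library listed 140 to 158 of the features and each WT library 167 to 175. Over all features the KO libraries listed 1176 to 1247 and the WT libraries 1257 to 1308, so both counts were higher in WT without overlap. All 6 libraries listed 104 of the features, and 37 were listed in 1 library only.

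No few features held most of the reads. Taking features in falling order of level, 91 were needed to hold 75% of the U6-length reads and 126 to hold 90%. The top feature, Gm24917, held 2.90%, and the top 12 together held 15.2%. The plot of reads by rank shows a plateau: 139 features had 11 to 49 reads over the 6 libraries, 2 had more, and 74 had 10 or fewer. Among the 141 features with 11 or more reads the quartiles were 17 and 34 reads and the median 27. Of the 74 features below them, which held 223 reads together, 33 had a single read. There were 33 members with no KO read, none with more than 4 WT reads, and 13 with no WT read, none with more than 2 KO reads. The like counts over all features are not given here. The KO libraries listed fewer features over all, 1176 to 1247 against 1257 to 1308.

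**Figure D1:**
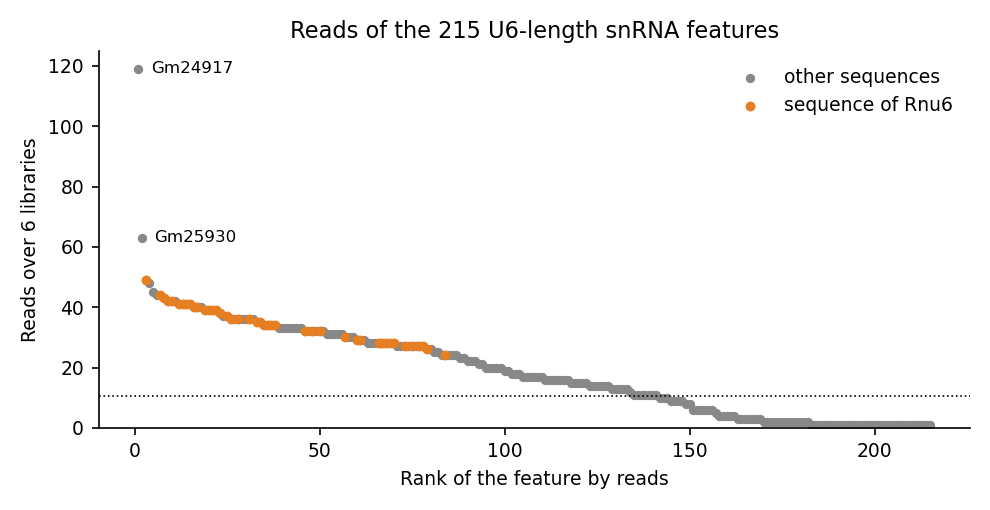
Reads over the 6 libraries (vertical axis) of the 215 U6-length snRNA features in falling order of reads (horizontal axis). Orange points are the 43 features with the sequence of Rnu6, gray points are other sequences, and the dotted line separates the 74 features with 10 or fewer reads; Gm24917 with 119 and Gm25930 with 63 reads stand above a plateau.

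Gm24917, in an intron of the protein-coding gene Gm28048 on the opposite strand, stood apart. It had 10, 8 and 18 KO reads against 37, 17 and 29 WT reads. The library with the most reads was WT replicate 1 and the one with the fewest KO replicate 2, and the genotypes overlapped, since KO replicate 3 had 0.381 CPM and WT replicate 2 0.374 CPM. Its sequence is unique among annotated genes, 20 edits from Rnu6, and matches Rnu6 without a break from base 39 to base 79. An edit is 1 substituted, inserted or deleted base. The nearest other member is 18 edits from Gm24917, so no copy with 10 or fewer reads is within 2 edits of it.

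Gm25930, within an intron of Aff4, a subunit of the super elongation complex of transcription, had 10, 2 and 8 KO reads against 21, 7 and 15 WT reads. It differs from Rnu6 by 9 edits, and its longest stretch shared with Rnu6 runs from base 38 to base 71. Here too the genotypes overlapped, at KO replicate 1 and WT replicate 2. The next 10 features by level (Gm26496, Gm23296, Gm24456, Gm25245, Gm23217, Gm25869, Gm25583, Gm22580, Gm24182 and Gm25405) had 41 to 49 reads each. Each of them has the Rnu6 sequence or is 1 edit from it. Gm26496, in an intron of Fam227b, had 8, 2 and 2 KO reads against 18, 12 and 7 WT reads. Gm22580, in an intron of the dystrophin gene Dmd, had 8, 3 and 10 against 11, 5 and 5, and was the 1 member of the top 12 with as many KO reads as WT reads, 21 each. Gm26496 and Gm22580 have the Rnu6 sequence, which 43 annotated genes share, so their reads cannot be tied to these introns.

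The copies with the Rnu6 sequence had nearly equal counts. All 43 annotated genes with that sequence were listed, with 24 to 49 reads each (median 35) over the 6 libraries. Their variance was 1.06 times their mean, and counts drawn at random with equal probability have a ratio of 1. They held 1491 reads, 36.3% of all U6-length reads. Rnu6 itself had 5, 1 and 4 KO reads against 8, 4 and 7 WT reads, 29 in all, fewer than the median of its sequence.

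Reads declined with distance from that sequence. GENCODE annotates 875 snRNA genes of U6 length, 874 of which have a sequence in the reference used, and 660 of the 875 had no read. Of the 43 genes with 1 edit all were listed, with a median of 23 reads. Of 24 with 2 edits, 23 were listed (median 16). Among 137 genes with 3 to 8 edits, 72 were listed (52.6%, median 1 read), and among 627 with 9 or more edits, 34 were (5.42%). The members had a median of 2 edits, the genes without a read 23. The box was in 338 of 659 genes without a read (51.3%), 61 of the 74 members with 10 or fewer reads (82.4%) and 138 of the 141 members with more (97.9%). A sequence ending in TTTT, the letters at which RNA polymerase III stops, was found in 270 of 659 (41.0%), 55 of 74 (74.3%) and 114 of 141 (80.9%) of the same sets. Rnu6-ps2, a named U6 pseudogene with 9 edits, was listed in no library.

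**Figure D2:**
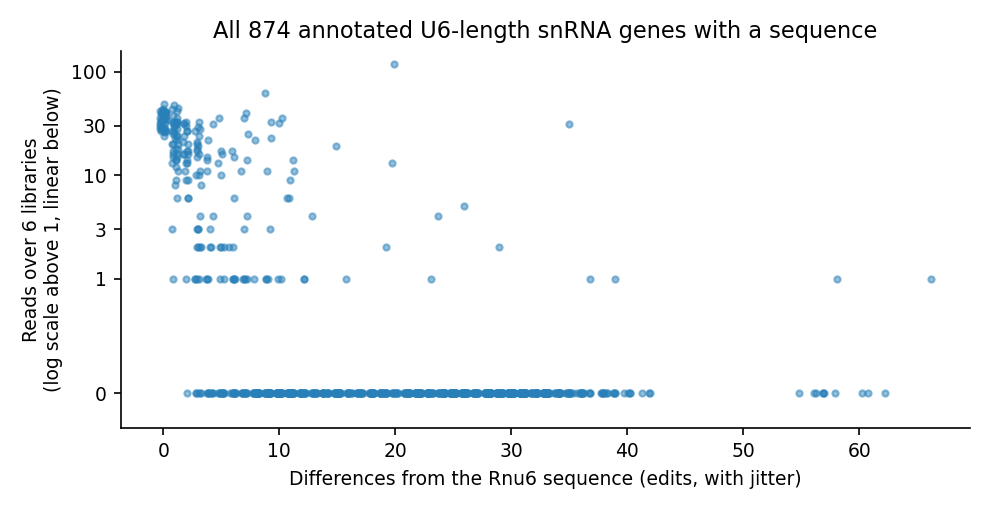
Reads over the 6 libraries (vertical axis, log scale above 1) of the 874 annotated U6-length snRNA genes with a sequence, against the number of edits from the Rnu6 sequence (horizontal axis, with jitter). Each point is 1 gene; the 43 genes with no edit have 24 to 49 reads, and most genes with 9 or more edits lie at 0.

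Reads also varied with the place of the difference. There are 40 annotated copies of 107 nt with exactly 1 substitution, and positions are counted from 1 at the 5′ end. Reads were lowest for substitutions near the middle. Gm25412 (A47T, within the box) had 1 read, Gm22307 (G54T) had 3 and Gm23144 (C63T) had 8. The 6 copies that differ at base 66 had 6 to 16 reads. By contrast, Gm24182 (G1A) had 42 reads, the 4 copies with T107G had 33 to 48, and Gm24456 (G80C) and Gm25245 (C94G) had 45 and 44, all within the range of the copies without a difference. The 6 copies that differ at base 37 had 14 to 24 reads. The rise toward the ends was uneven. Gm22306 (T32G) had 15 reads, and Gm22003 and Gm22756 (both G34A) had 16 and 14. On the other side, Gm25312 (C77T) and Gm24565 (C79T) had 20 and 18 reads, next to Gm24456 with 45.

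With the molecule divided into 3 parts of about equal length, a division made after the values were seen, the median was 23 reads for 11 copies with the substitution in bases 1 to 35, 13.5 for 16 copies in bases 36 to 71 and 33 for 13 copies in bases 72 to 107.

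**Figure D3:**
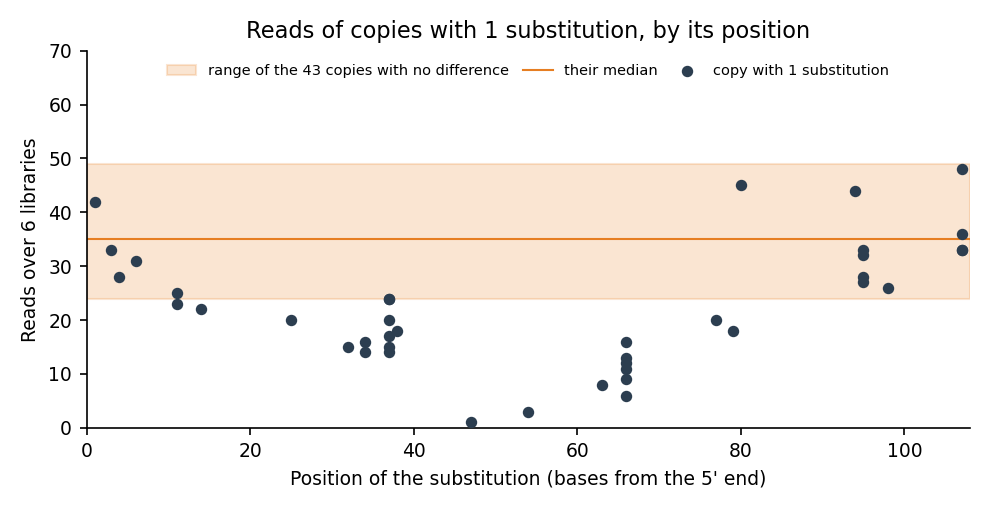
Reads over the 6 libraries (vertical axis) of the 40 copies with 1 substitution against its position in bases from the 5′ end (horizontal axis). The band and line give the range and median of the 43 copies without a difference. Points near bases 47 and 54 lie at 1 and 3 reads, and points rise unevenly toward both ends.

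Among genes far from the Rnu6 sequence, those that kept a longer stretch of it more often had 11 or more reads. There were 12 members with over 8 edits and 11 or more reads. Gm24917 and Gm25930, with the most reads of them (119 and 63), had longest shared stretches of only 41 and 34 nt. Gm24596, with 36 reads, matches Rnu6 from base 1 to 94, Gm23057 with 23 reads from base 1 to 87, and Gm23629 with 32 reads from base 1 to 79. Gm22351, which matches from base 1 to 68, had 13 reads. All 4 annotated genes with over 8 edits and a shared stretch of 70 nt or more had 11 or more reads, against 3 of 8 with 50 to 69 nt, 4 of 57 with 30 to 49 nt and 1 of 558 with less. That 1 is Gm24848, with 31 reads, 35 edits and a longest shared stretch of 6 nt.

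The comparison of genotypes asks whether U6 differed when the maternal copy of the locus was mutated. The KO libraries had U6-length sums of 10.5, 5.96 and 11.4 CPM, and the WT libraries 22.0, 16.3 and 16.4 CPM. All 3 KO libraries lay below all 3 WT libraries, KO replicate 2 was the lowest and WT replicate 1 the highest. The means were 9.28 ± 2.90 CPM and 18.3 ± 3.2 CPM (SD, n = 3 each), 1.97-fold higher in WT. The exact two-sided permutation test gave p = 0.1, the smallest that 3 against 3 allows. Entered as 1 feature in edgeR's quasi-likelihood fit of all features, the sum had a log2 fold change (KO over WT) of -0.92 (SE 0.30) with an unadjusted p of 0.0196 and an adjusted p of 0.641, so it was not called. The median over all features was -0.08. In DESeq2 the adjusted p was 0.366. Of the 5 miRNA features of blood cells, Mir126a and Mir150 lay the other way without overlap. Mir142 (2.13 ± 0.18 and 1.47 ± 0.48 CPM), Mir223 (18.2 ± 4.1 and 13.4 ± 5.3 CPM) and Mir144 (0.397 ± 0.312 and 0.200 ± 0.032 CPM) had higher KO means with overlap (KO and WT, SD, n = 3 each). WT replicate 1, with the most U6, had the lowest level of 4 of the 5, all but Mir144. Whether a different mix of cells had a part in the U6 sums was not tested. In bulk samples, fewer cells of a type and less RNA per cell cannot be told apart.

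**Figure D4:**
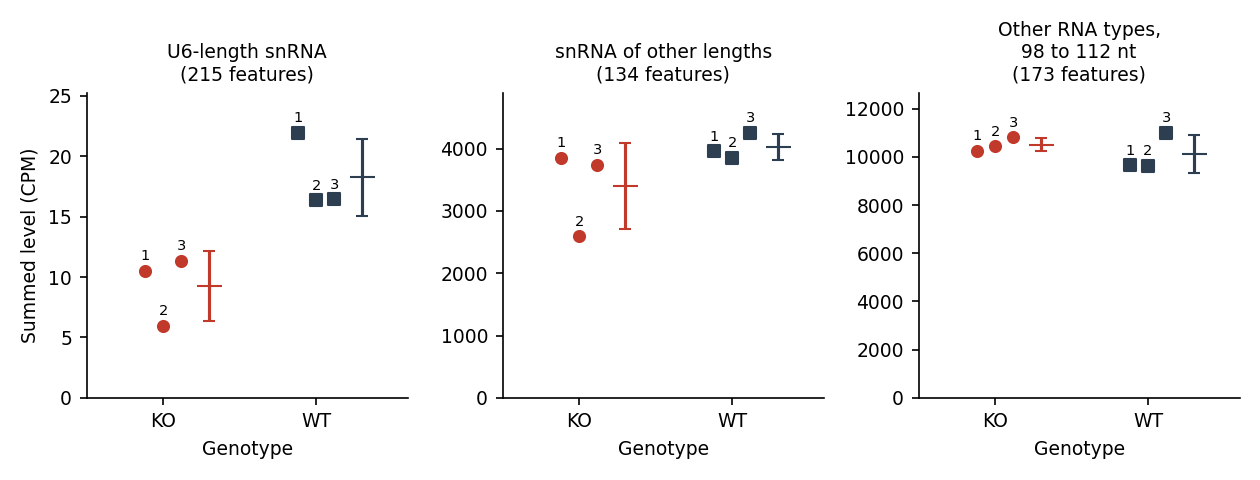
Summed level in CPM (vertical axes, from 0, with a different scale in each panel) of U6-length snRNA features, snRNA features of other lengths and features of other RNA types of the same length. Points are the 3 KO and 3 WT libraries with their replicate number, and bars give mean and SD; the genotypes do not overlap for the U6-length sum, 5.96 to 11.4 against 16.3 to 22.0 CPM, and overlap in both other panels.

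Single U6-length features were mostly too rare for the test. Only Gm24917 and Gm25930 passed the expression filter, and edgeR called neither, with 0.16% of the 624 tested features called. DESeq2 called neither, with 0.161% of 622 called. At an unadjusted p under 0.05 there was 1 of these 2, beside 40 of all 624 (6.41%). Gm24917 had a log2 fold change of -1.09 (SE 0.41, adjusted p = 0.710 by edgeR) and Gm25930 of -0.97 (SE 0.60, adjusted p = 0.730). With no filter, edgeR called none of the 215, while it called 0.713% of all 1823 features. There 176 of the 215 had lower KO estimates, beside 824 of the 1608 other features (51.2%). An unadjusted p under 0.05 was found for 26 members, all with lower estimates, and for 85 of the others (5.29%), 43 of them with lower estimates. Similar copies may share reads, and 69 members share their sequence with another annotated gene, so these are not 215 separate tests. The other features were not matched for abundance here. The smallest adjusted p of a member was 0.318, that of Gm25245.

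Most U6-length features had lower values in the KO libraries, set here beside features of like abundance. All 141 members with 11 or more reads had 119 or fewer, and 132 of them (93.6%) had a lower mean CPM in the KO libraries, against 65.1% of 292 other features with as many reads. Every KO library was below every WT library for 52 members (36.9%). The shares were 11.6% of those others and 12.5% of all features that passed the filter. The reverse was rare everywhere, with none of the members, 5 of the 292 others and 17 of the 624 features that passed the filter. Median log2 ratios of the means were -1.03 and -0.32. Copies that share a sequence may share reads, so these are not 141 separate RNAs. KO replicate 2 was the library with the fewest U6-length reads. Without it, 119 members (84.4%) had a lower mean against 63.7% of the others.

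Each sequence class had the same direction. The 43 copies of the Rnu6 sequence summed to 3.43 ± 1.23 KO and 6.57 ± 1.39 WT CPM (SD, n = 3 each, likewise below). Copies with 1 edit summed to 2.37 ± 0.60 and 4.34 ± 1.05 CPM, and those with 2 edits to 0.861 ± 0.445 and 1.89 ± 0.29 CPM. With 3 to 8 edits the sums were 1.57 ± 0.35 and 3.43 ± 0.21 CPM, and with 9 or more 1.05 ± 0.32 and 2.02 ± 0.33 CPM. In none of the 5 classes did the genotypes overlap, and each had an exact permutation p of 0.1. The ratio of the means, WT over KO, was between 1.83 and 2.20. Similar copies may share reads, so the 5 classes are not separate results. Of all features that passed the filter, 12.5% had every KO library below every WT library. The 74 features with 10 or fewer reads summed to 0.579 ± 0.122 and 0.931 ± 0.160 CPM, a ratio of 1.61.

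**Figure D5:**
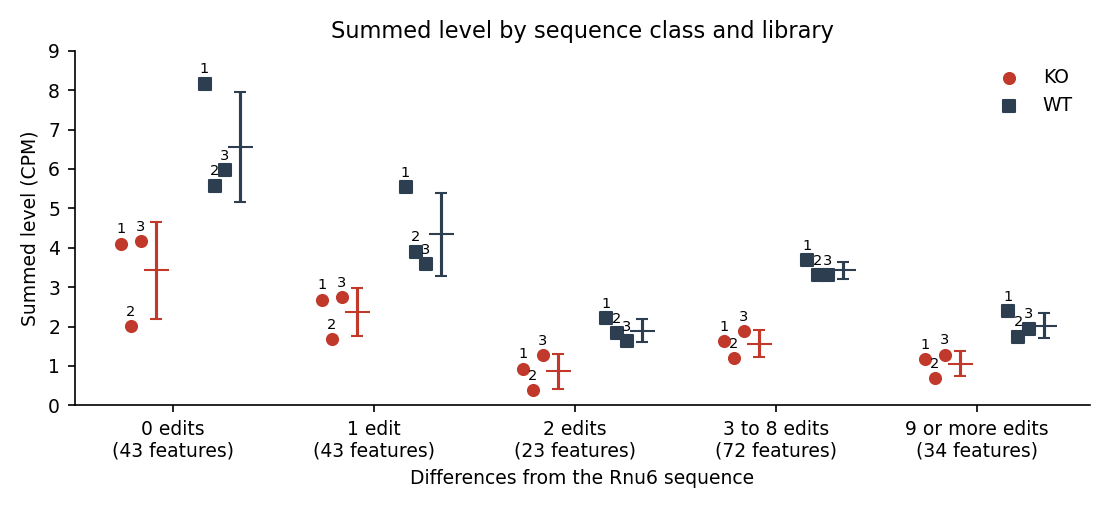
Summed level in CPM (vertical axis) of U6-length features in 5 classes of differences from the Rnu6 sequence (horizontal axis). Points are the 3 KO and 3 WT libraries with their replicate number and bars give mean and SD; in every class the KO points lie below the WT points.

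One small set chosen after the values were seen did not show that separation. The 9 copies with 1 substitution at bases 47 to 66, the low part of the plot by position, had 13, 8 and 15 KO reads against 24, 14 and 5 WT reads. Their sums were 0.247 ± 0.084 and 0.286 ± 0.177 CPM (SD, n = 3 each), and the genotypes overlapped, with WT replicate 3 the lowest of all (exact permutation p = 0.9). All 16 copies with a substitution in bases 36 to 71, which include these 9, summed to 0.492 ± 0.125 and 0.911 ± 0.495 CPM without overlap. The copies with a substitution in bases 1 to 35 summed to 0.590 ± 0.228 and 1.22 ± 0.07 CPM. Those in bases 72 to 107 summed to 1.03 ± 0.18 and 1.80 ± 0.36 CPM, both sets without overlap. Whether these sets differ in their response was not tested.

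Features with identical sequences were also summed before the fit, which left 8 U6-length sequences that passed the filter. All 8 had lower KO estimates and edgeR called none, with 0.166% of 604 features called. At an unadjusted p under 0.05 there were 3, beside 35 of the 596 other features (5.87%). The Rnu6 sequence had 199, 104 and 197 KO reads against 435, 253 and 303 WT reads, with a log2 fold change of -0.88 (SE 0.35, adjusted p = 0.681 by edgeR). The smallest p belonged to a sequence shared by Gm22352 and 1 other gene, with 2, 2 and 8 against 21, 15 and 13 reads. Its log2 fold change was -1.92 (SE 0.55, adjusted p = 0.566).

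Other snRNAs also had lower estimates, of smaller size. Of 63 tested snRNA features of other lengths, 60 had lower KO estimates (54 with RLE size factors), but edgeR and DESeq2 called none. They include copies of the same snRNA, such as U1, which may share reads, so the 63 features are not separate RNAs. Their median log2 fold change was -0.24, beside -0.08 and 369 lower among all 624 tested features (297 lower with RLE), while 6 of the 63 and 40 of the 624 (6.41%) had an unadjusted p under 0.05, all 6 and 27 of the 40 with lower estimates. With RLE the medians were -0.13 for these snRNAs and 0.02 for all features. All 134 listed together had 3857, 2597 and 3743 KO CPM against 3962, 3855 and 4258 WT CPM. KO replicate 2 was low and the genotypes overlapped at KO replicate 1. Per 1000 reads of these other snRNAs there were 2.73, 2.3 and 3.03 U6-length KO reads against 5.55, 4.24 and 3.86 WT reads. This ratio, which tests the difference between U6 and the other snRNAs, did not overlap between genotypes (exact permutation p = 0.1, the smallest possible).

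All 10 tested features with a Rnu symbol had lower estimates and none was called. These include several U1 genes, whose similar copies may share reads, so the 10 features are not separate RNAs. U1, which recognises the 5′ splice site first, had 105 ± 14 and 120 ± 6 CPM at Rnu1b1, 101 ± 12 and 118 ± 7 CPM at Rnu1a1 and 98.5 ± 11.3 and 113 ± 6 CPM at Rnu1b2 (KO and WT, SD, n = 3 each). U2, which pairs with U6 in the active spliceosome, had 73.9 ± 30.9 and 87.5 ± 4.9 CPM at Rnu2-10. Rnu5g, a U5 gene whose RNA aligns the exons, had 49.6 ± 11.1 and 65.7 ± 12.3 CPM. Rnu11 and Rnu12 of the minor spliceosome had 3.33 ± 0.46 and 4.55 ± 0.44 CPM, and 62.2 ± 55.2 and 90.8 ± 48.5 CPM. Rnu7, which acts in histone mRNA processing and not in splicing, had 197 ± 34 and 242 ± 28 CPM, and Rnu7-ps3 had 0.339 ± 0.142 and 0.502 ± 0.132 CPM. Rnu1b6 had 83, 62 and 84 reads against 133, 118 and 139, a log2 fold change of -0.68 (SE 0.27, adjusted p = 0.710 by edgeR). It and Rnu11 were the tested Rnu features whose genotypes did not overlap. Among all 624 tested features, 78 (12.5%) had every KO library below every WT library.

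Among other RNAs of RNA polymerase III with U6-type promoters, Rny3 came closest to U6. Rny3, a Y RNA bound by the Ro protein and 102 nt long, had 94, 95 and 149 KO reads against 303, 172 and 224 WT reads, without overlap. Its log2 fold change was -0.95 (SE 0.31, unadjusted p = 0.0181, adjusted p = 0.700 by edgeR). Per Rny3 read there were 4.09 ± 1.17 (KO) and 3.97 ± 0.31 (WT) U6-length reads (SD, n = 3 each), which overlapped (exact permutation p = 1). This ratio was added after the data were seen. Rny3 and the U6-length sum had about the same fold change, so the ratio is not a separate test. Rny1, the other Y RNA listed, had 18.3 ± 0.8 and 26.2 ± 4.8 CPM, and Rn7sk, the 7SK RNA that restrains transcription elongation, had 28.4 ± 3.0 and 36.7 ± 5.3 CPM. None of the 3 tested was called, and their median log2 fold change was -0.45. Rmrp and Rpph1 matched no listed feature.

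Features of other types with the length of U6 overlapped between the genotypes. The 173 of them had 10505 ± 284 KO and 10096 ± 788 WT CPM (SD, n = 3 each, exact permutation p = 0.4). Of 47 tested, 26 had lower and 21 higher estimates (20 and 27 with RLE), none was called, and the median log2 fold change was -0.05 (0.06 with RLE). By type, miRNA features of that length summed to 6466 ± 1187 and 5601 ± 150 CPM and snoRNA features to 4018 ± 1022 and 4464 ± 686 CPM. The 8 miscellaneous RNA features, which include both Y RNAs, summed to 20.8 ± 1.5 and 31.1 ± 5.3 CPM without overlap. Nearly all of this was Rny1 (18.3 and 26.2 CPM) and Rny3 (2.31 and 4.63 CPM), so it repeats the Y RNA values above. Per 1000 reads of all 173, there were 0.882 ± 0.270 (KO) and 1.82 ± 0.41 (WT) U6-length reads, without overlap (exact permutation p = 0.1).

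U6 is itself modified by 2′-O-methylation, guided by C/D box snoRNAs. Of 6 guides on the list, Snord7, Snord8, Snord67 and Snord94 were matched and tested, and Snord9 and Snord10 matched no listed feature. None was called and all 4 had lower estimates (with RLE all but Snord67), with a median log2 fold change of -0.28. Snord7 had 44, 59 and 104 KO reads against 114, 54 and 93 WT reads, and Snord8 had 217, 107 and 167 against 238, 149 and 278. Both overlapped between genotypes. Snord67 had 3.65 ± 1.19 and 3.94 ± 0.48 CPM, and Snord94 4.37 ± 1.43 and 6.33 ± 0.50 CPM (SD, n = 3 each), the latter without overlap (edgeR log2 fold change -0.47 with SE 0.31, adjusted p = 0.733).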

How the data were processed

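Small RNA libraries of 3 KO and 3 WT samples, grouped by title, were analysed from the read counts per non-coding RNA feature that the authors deposited, without recorded normalization. Trimmomatic 0.38, Bowtie2 2.3.4.1 and GRCm38 are named in the submitters' processing notes. Only features with at least 1 read are listed, so a missing feature was set to 0. Of 1823 features, 1822 matched a GENCODE M21 gene at the same start and end. CPM is the count scaled by the library total, 45398303 to 53299322. Depth limits single members, of which 2 passed the filter. edgeR 4.0.16 (R 4.3.3, quasi-likelihood, TMM, minimum count 10, minimum total 15, threshold 0.05, Benjamini-Hochberg over all features tested) compared KO with WT. Standard errors are approximate. DESeq2 1.42.0, scalings, filters, a replicate block, summed copies and leaving out each library were alternatives. Single values had exact two-sided permutation tests (scipy 1.17.1). Edits are global edit distances (edlib 1.3.9.post1).

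The named features are the top 12 members by level (a cap, since 126 hold 90% of the reads), any called member, the listed RNAs of the 3 pathway lists, and copies with 10 or fewer reads near the top member, of which there were none. Other U6-length genes named as examples were chosen after their values were seen or for the trait stated with them. The members and lists were chosen with earlier results of these data known. Sequence beyond the genes' ends and promoters of the members was not analysed here, and planned searches there were not run. The members' sequences are not reported here.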

Additional observations from a re-analysis of the deposited data

How the results depend on the processing

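In the 14 alternatives run, the U6-length sum in the fit kept its direction and was not called, with a log2 fold change of -1.02 to -0.68 and an adjusted p of 0.223 to 0.962 (unadjusted 0.0105 to 0.0880). Leaving out 1 library gave -1.02 to -0.68. The median of all features moved from -0.08 with TMM to 0.02 with RLE and to -0.16 with totals alone, where the sum had -0.82 and -0.98. As a ratio of mean CPM the log2 value was -0.98, -1.15 to -0.74 with 1 library left out, and -0.76 scaled by the other snRNAs. Scaled by Rny3, added after the data were seen, it turned to 0.0448, Rny3 being lower by about as much. No U6-length feature was called under any setting, where 0 to 215 were tested. Over all features edgeR called 1 of 624, 13 of 1823 with no filter and none with the replicate block. With the replicate block the sum had -0.96 (adjusted p = 0.541). Same-numbered libraries correlated at -0.13, 0.40 and -0.37 in their deviations, and KO replicate 1 correlated best with WT replicate 3. With 3 libraries per genotype, this check cannot decide whether the numbers pair the libraries. The number of features holding 90% of the reads was 126, and 105 to 118 in single libraries.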
